A study of Mus musculus with 185 samples.

Results

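The genes described here are 9 genes of fatty acid oxidation and ketone body use in the mouse brain, chosen by name out of 57010 genes in the count matrix: Pdk4, Ppara, Cpt1a, Cpt1c, Slc25a20, Cpt2, Acadm, Bdh1 and Oxct1. They were measured by RNA-seq in male C57BL/6 J mice of 8 weeks in a pair of diet studies. In the 16 h study, pair-housed mice stayed on chow, were switched to a high-fat diet (HFD) or were fasted, with 6 mice in each group. In the 24 h study, single-housed mice stayed on chow (9 mice) or were fasted (10 mice). Each mouse gave 5 dissected brain pieces: the inferior and the superior colliculus, hippocampus and hypothalamus, together with prefrontal cortex at 16 h or zona incerta at 24 h. The columns of the matrix name the mouse and not the region, so all comparisons use the sum of the 5 columns of a mouse. The mouse is the replicate. In the 16 h study, cages and not single mice were randomized to the diets, and cage mates shared their food. The 16 h tests treat cage mates as independent, so their intervals can be too narrow. Time, housing, sequencing run and one of the regions differ together between the studies and cannot be told apart.

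During fasting, fatty acids released from fat tissue become a main fuel of many organs, and the liver turns a share of them into ketone bodies, which the brain can burn in place of glucose. Long-chain fatty acids enter mitochondria through the carnitine shuttle. Cpt1a attaches carnitine at the outer membrane, the carrier encoded by Slc25a20 moves the acylcarnitine inward, and Cpt2 removes the carnitine again. Acadm, the medium-chain acyl-CoA dehydrogenase, starts a round of beta-oxidation. Bdh1 and Oxct1 encode the mitochondrial enzymes that convert ketone bodies for use in the citric acid cycle. Pdk4 encodes a kinase that switches off pyruvate dehydrogenase, the entry of glucose carbon into that cycle, and Ppara encodes a nuclear receptor that binds fatty acids and activates many genes of this pathway, mostly studied in liver, heart and muscle.

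Counts per column ran from 2994 to 65973281 with a median of 17626610, and counts per mouse from 57962237 to 161577364. Of the 185 columns, 27 lay below a limit of 1000000 counts or of 16000 genes in a draw of 500000 counts, and 158 lay above both. The labels mark 29 libraries as failing the authors' alignment check, and the sums include every column. Among these 29 are all 24 libraries of a block of the 24 h study, from chow and fasted mice, sequenced on a separate SP flowcell. The paper reports no detectable RNA in this block and discarded it. Its columns cannot be picked out by heading, so they remain in the sums of the 24 h mice. The sample notes say that the superior colliculus tubes of chow mouse 1423 and fasted mouse 1454 of the 24 h study were exchanged, and the study's methods say that the metadata were corrected for this. Whether the headings of the matrix carry the correction was not tested, so the values of Pdk4 and Cpt1a at 24 h, and calls that were lost, are also given without these mice. Mitochondrial genes took 3.78 to 4.98% of the counts of a mouse at 16 h and 8.57 to 16.7% at 24 h. In tissue pieces of mixed cell types, a lower count of a gene from fewer cells of a type and from less RNA per cell cannot be told apart.

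Values per mouse are CPM, the count of a gene scaled to a total of 1000000 counts per mouse, with TMM factors, a normalization that assumes most genes to be equal between the libraries of a study. All 9 genes passed the filter on low counts in every comparison. Under chow in the 24 h study, levels per kb of annotated exon covered a wide range. Oxct1 stood highest at 39.1 ± 5.56 normalised CPM per kb (SD, n = 9), and Ppara lowest at 0.530 ± 0.0521. Cpt1c, the brain-enriched Cpt1 form, followed Oxct1 at 7.75 ± 0.639 normalised CPM per kb, above Cpt1a at 3.28 ± 0.212. Bdh1 reached 6.46 ± 0.379, Acadm 3.92 ± 0.429, Cpt2 2.12 ± 0.158, Pdk4 1.99 ± 0.217 and Slc25a20 1.56 ± 0.0945 normalised CPM per kb. The ranges over the 9 chow mice overlapped between Cpt1c and Bdh1, between Acadm and Cpt1a, and between Cpt2 and Pdk4, and did not overlap between the other neighbours in this order. Exon length counts every annotated exon, so genes with long or rarely used exons come out low.

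**Figure D1:**
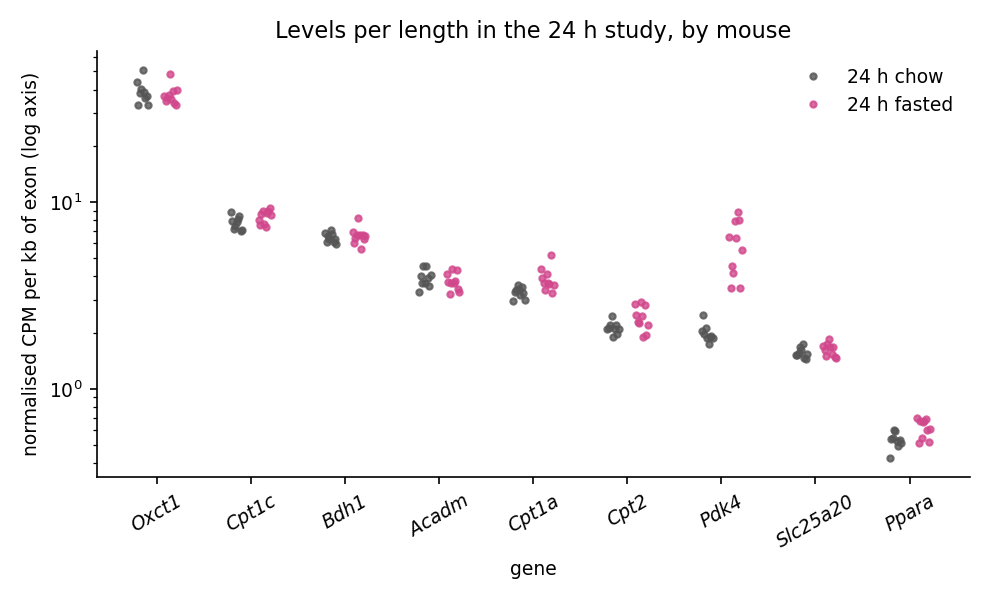
Level of each gene per length in the 24 h study, in normalised CPM per kb of exon on a log axis, with 1 point per mouse (grey, 9 chow mice, and pink, 10 fasted mice). Oxct1 lies far above the rest, and the 10 fasted mice lie above the 9 chow mice in Pdk4.

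Under fasting in the 24 h study, Pdk4 moved up this order to 5.88 ± 1.95 normalised CPM per kb (SD, n = 10), and its range of 3.47 to 8.81 overlapped those of Cpt1c, Bdh1, Acadm and Cpt1a. Oxct1 stayed highest at 37.4 ± 4.35 and Ppara lowest at 0.618 ± 0.0714 normalised CPM per kb.

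The first comparison asks which genes differ between fasted and chow-fed mice after 24 h. Pdk4 rose 2.94-fold and Cpt1a 1.18-fold, and the other 7 genes did not pass the threshold. Across all genes, 11.4% of 29011 tested were called in this comparison at an adjusted p under 0.05 (edgeR's quasi-likelihood test with Benjamini-Hochberg adjustment), 5.78% higher and 5.62% lower. Of the 9 genes, 2 were called, both higher. The median log2 difference of the 9 genes was 0.11, beside -0.0044 over all genes tested. The 9 genes were chosen with earlier results of these data known, so these values do not test them as a group. The share of calls that are higher depends on the scaling, with 33.9% on total counts without TMM factors and 28.4% with equal weight of the columns (limma), beside 1676 higher and 1631 lower calls here.

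Pdk4 lay between 6.63 and 9.46 normalised CPM in the 9 chow mice, with a median of 7.31. In the 10 fasted mice it lay between 13.2 and 33.4, with a median of 22.7. Every fasted mouse was above every chow mouse, and the lowest fasted values came from mice 1425 and 1454. Group means were 7.57 ± 0.824 normalised CPM on chow (SD, n = 9) and 22.3 ± 7.41 in fasted mice (SD, n = 10), a log2 difference of 1.56 with a standard error of 0.165 and a 95% interval of 1.21 to 1.90 (edgeR, adjusted p = 2.48e-06). Groups did not overlap in this direction for 1.06% of all tested genes. Without mice 1423 and 1454 the log2 difference was 1.67 (edgeR, adjusted p = 1.36e-06). The coefficient of variation was 33.2% among fasted and 10.9% among chow mice. By p, Pdk4 ranked 86 of 29011 genes.

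**Figure D2:**
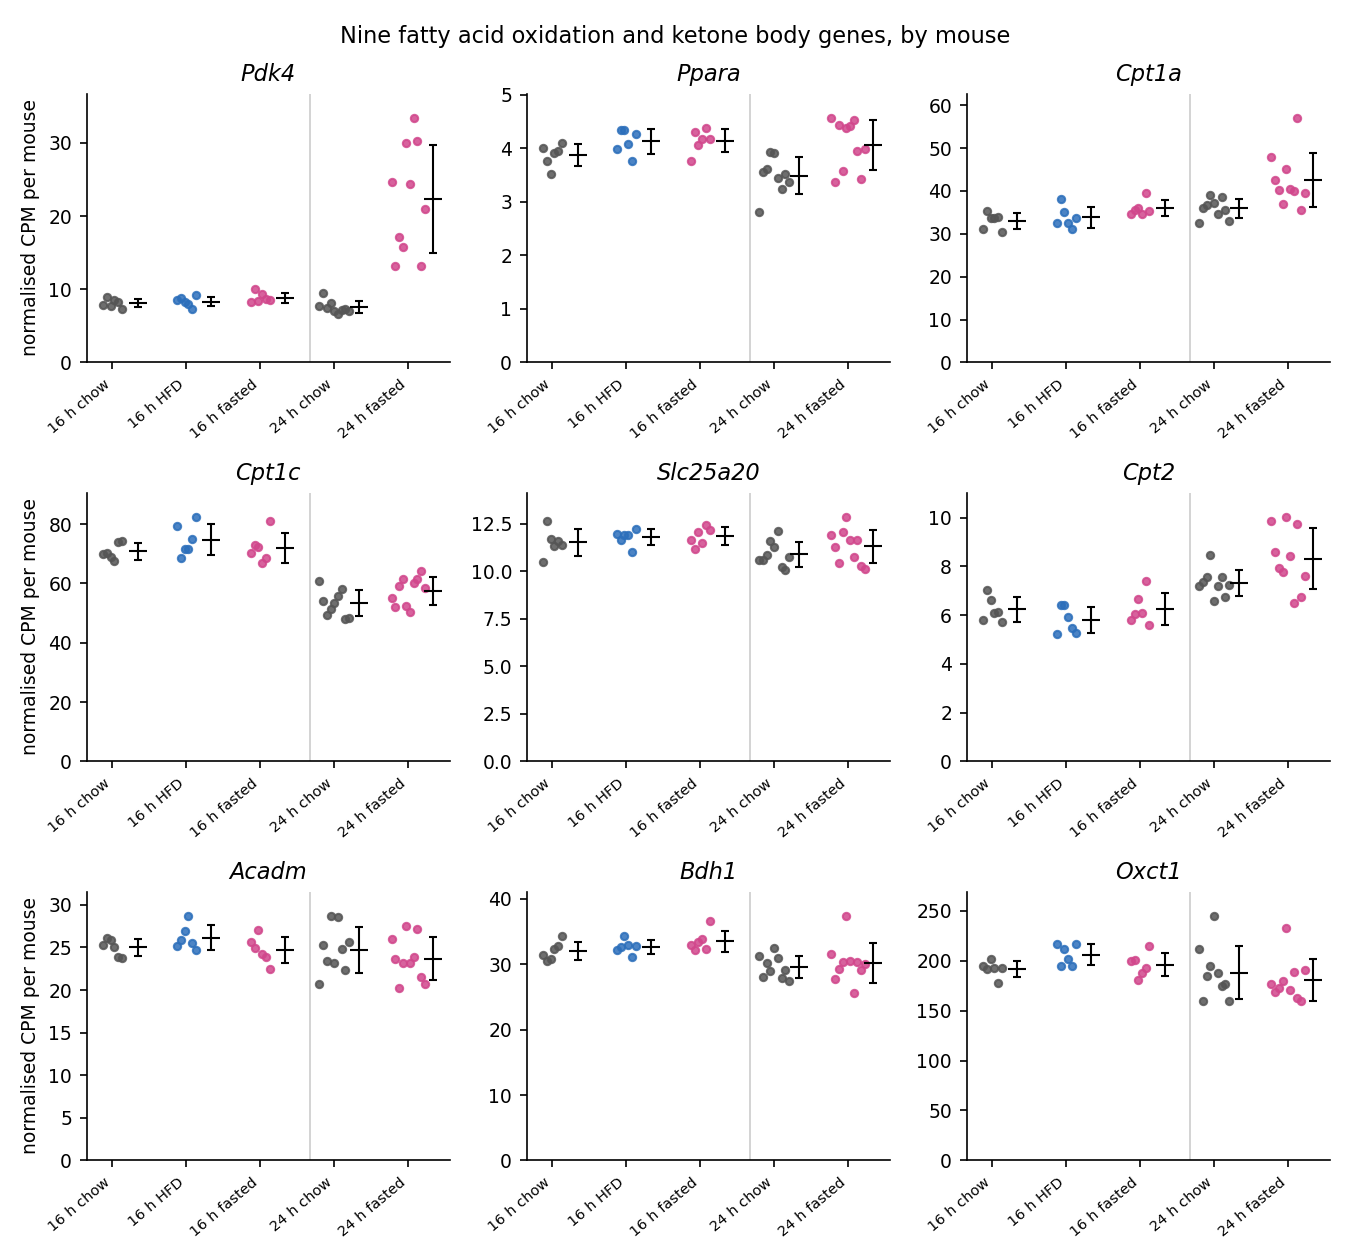
Normalised CPM of each of the 9 genes in each mouse, by group, from 0 on the vertical axis. Points are mice, black bars mean ± SD, and the vertical line separates the 16 h from the 24 h study. Pdk4 is the one gene whose 24 h groups do not overlap (6.63 to 9.46 against 13.2 to 33.4).

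The gene for Pdk4 (ENSMUSG00000019577) lies on chromosome 6 from 5483097 to 5496339 on the minus strand of GRCm39, and no other annotated gene overlaps it. Its 250 bases before the canonical transcript start (chr6:5496331-5496580, minus strand), shown because Pdk4 had the largest difference of the 9 genes, read as follows, with capitals on the 1 match to a searched motif.
Pdk4 promoter: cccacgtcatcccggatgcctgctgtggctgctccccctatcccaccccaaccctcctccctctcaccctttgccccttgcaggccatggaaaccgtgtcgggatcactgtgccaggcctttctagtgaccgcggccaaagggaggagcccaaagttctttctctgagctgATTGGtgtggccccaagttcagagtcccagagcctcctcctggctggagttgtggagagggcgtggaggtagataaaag
The capitals are a CCAAT box on the other strand, at -79 to -75 from the start, a motif that 36.5% of 21664 promoters of this length hold. A FOXO element (TGTTTAC, in 2.71% of promoters), a PPAR direct repeat (AGGTCA, any base, AGGTCA, in 0.0369%), a glucocorticoid receptor palindrome (GNACA, 3 of any base, TGTNC, in 0.300%) and an E-box (CACGTG, in 6.28%) were searched on both strands with exact letters. None of these 4 was found in the window of any of the 9 genes, and the CCAAT box was found in that of Pdk4 alone. That says only that these letters are not in these windows.

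Cpt1a, the Cpt1 form of liver and glia and a rate-setting step of the carnitine shuttle, lay between 32.4 and 39.1 normalised CPM in chow mice (median 35.9) and between 35.5 and 57.0 in fasted mice (median 40.3). The groups overlapped, with 8 of 10 fasted mice above every chow mouse and fasted mouse 1453 highest. The log2 difference was 0.24 with a standard error of 0.0723 and a 95% interval of 0.09 to 0.39 (edgeR, adjusted p = 0.0325). The call did not hold under 3 of 10 other settings, which include a looser threshold of 0.1 at which it could not be lost. It was lost with the columns above the limits alone (log2 0.24, adjusted p = 0.0513), on total counts (log2 0.19, adjusted p = 0.179) and with equal weight of the columns (limma, log2 0.11, adjusted p = 0.542). It was also lost when any one of chow mice 1422, 1442, 1451 and 1452 or fasted mouse 1424 was left out, with adjusted p from edgeR of 0.0508 to 0.0627. Without mice 1423 and 1454 it held (log2 0.27, edgeR, adjusted p = 0.0272).

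Ppara lay between 2.82 and 3.94 normalised CPM on chow and between 3.37 and 4.57 in fasted mice, with 7 of 10 fasted mice above every chow mouse. Its log2 difference of 0.22 (95% interval 0.06 to 0.38) missed the threshold (edgeR, adjusted p = 0.0795). It passed at a threshold of 0.1, and at 0.05 without fasted mouse 1425 (log2 0.25, adjusted p = 0.0424). Ppara overlaps the gene Cdpf1 on the other strand, and the strand used in counting is not given in the sources used here. Cpt2 had a log2 difference of 0.18 (95% interval 0.01 to 0.35; edgeR, adjusted p = 0.166), with means of 7.32 ± 0.548 on chow and 8.32 ± 1.25 normalised CPM in fasted mice. It overlaps Czib on the other strand.

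Differences were smaller for Cpt1c and Slc25a20. Cpt1c had means of 53.3 ± 4.40 on chow and 57.5 ± 4.63 normalised CPM in fasted mice, a log2 difference of 0.11 (95% interval -0.01 to 0.22; edgeR, adjusted p = 0.239). Slc25a20, the carnitine-acylcarnitine carrier, had 10.9 ± 0.658 and 11.3 ± 0.881 normalised CPM, a log2 difference of 0.05 (95% interval -0.06 to 0.16; edgeR, adjusted p = 0.599). The groups overlapped in both genes. Cpt1c overlaps the lncRNA gene 6530437J22Rik on the other strand.

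Acadm and the ketone body enzymes lay close to their chow levels. Acadm lay between 20.7 and 28.7 normalised CPM on chow and between 20.2 and 27.5 in fasted mice, a log2 difference of -0.06 (95% interval -0.21 to 0.08; edgeR, adjusted p = 0.657). Bdh1, which interconverts the ketone bodies beta-hydroxybutyrate and acetoacetate, had 29.6 ± 1.74 and 30.2 ± 3.03, a log2 difference of 0.03 (95% interval -0.09 to 0.14; adjusted p = 0.814). Its sign turned to -0.03 on total counts. Oxct1, which activates acetoacetate for oxidation, had 188 ± 26.8 and 180 ± 21.0, a log2 difference of -0.06 (95% interval -0.23 to 0.11; adjusted p = 0.710). With equal weight of the columns, Oxct1 was called lower (limma, log2 -0.14, adjusted p = 0.0348). The edgeR interval of Oxct1 ran from 0.854-fold to 1.08-fold of the chow level, and that of Bdh1 from 0.942-fold to 1.11-fold. Oxct1 overlaps Oxct1as and Gm15632, and Bdh1 overlaps Gm15743, all on the other strand.

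**Figure D3:**
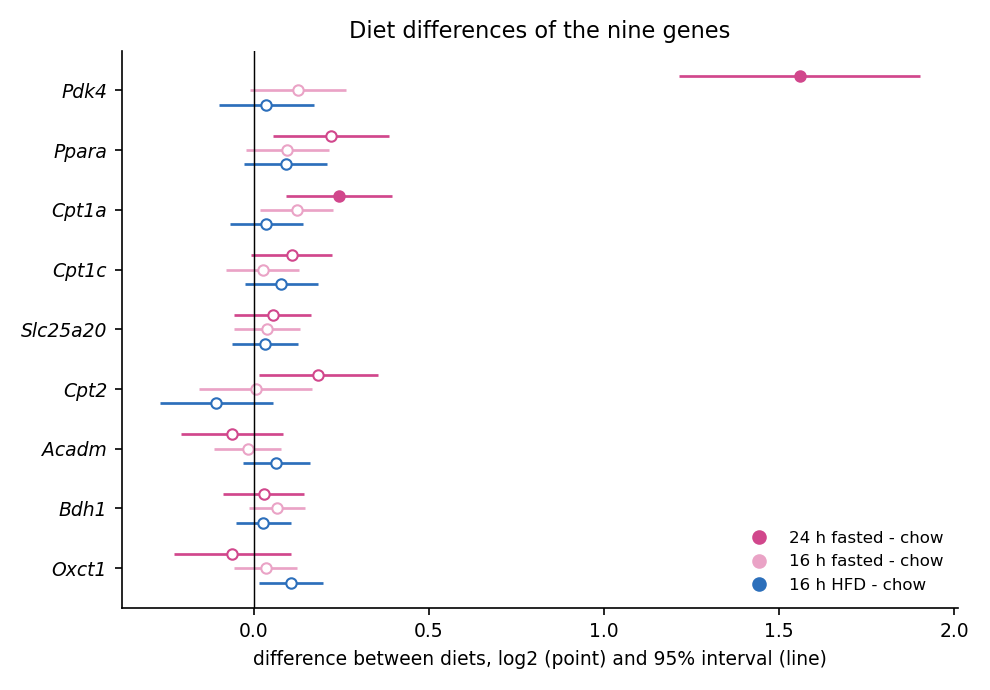
Difference between diets of each of the 9 genes on the log2 scale (points) with 95% intervals (lines). Filled points have an adjusted p under 0.05 (edgeR), which holds for Pdk4 (1.56) and Cpt1a (0.24) at 24 h and for no gene in either comparison with chow at 16 h.

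Single columns show the spread of Pdk4 within a mouse. Among the columns above the limits, Pdk4 ran from 3.92 to 13.6 CPM in 34 chow columns (median 7.53) and from 4.25 to 49.3 CPM in 38 fasted columns (median 19.7). Of the 38 fasted columns, 29 were above every chow column. The matching share over all genes was not computed. The region of each column is not known, so the columns of chow and fasted mice may differ in region. Columns of one mouse differ in region, so they are not replicates. In fasted mouse 1435 the 3 columns lay between 28.4 and 31.7 CPM, while in fasted mouse 1444 they lay at 18.4, 21.0 and 49.3. The 2 highest of the chow columns, at 12.6 and 13.6 CPM, belong to mouse 1423. Fasted mouse 1454 had columns at 5.65, 9.64, 14.6 and 16.4 CPM. Without both mice, 30 chow columns ran up to 12.5 CPM.

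**Figure D4:**
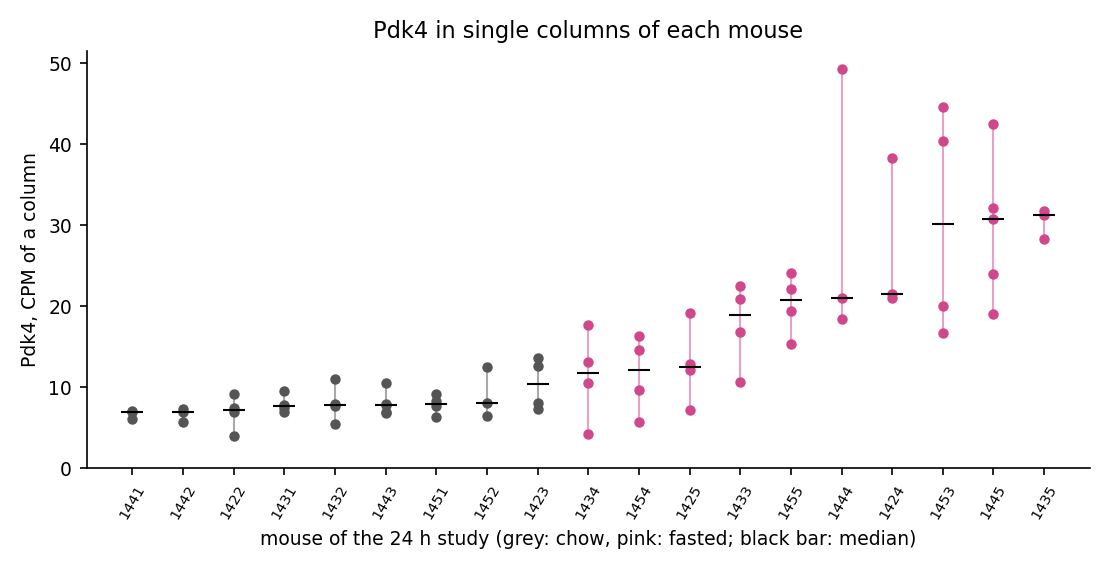
Pdk4 in each column above the limits, in CPM of the column, for each mouse of the 24 h study. Grey is chow, pink is fasted and the black bar is the median of the mouse. Fasted columns range from 4.25 to 49.3 CPM and chow columns from 3.92 to 13.6.

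The 16 h study asks the same of a shorter fast and of an HFD. No gene of 29746 was called between fasted and chow mice or between HFD and chow mice (edgeR, 0.0% each), with 2267 (7.62%) and 2914 (9.8%) genes at an unadjusted p under 0.05 and with 19 and 5 genes called by DESeq2. Accordingly, 0 of the 9 genes were called in either. Unadjusted p was under 0.05 for 1 of the 9 in each, Cpt1a in fasted and Oxct1 in HFD mice. Between fasted and HFD mice, 0.219% of genes and 0 of the 9 were called. Sums over the regions of a mouse can hide a difference confined to a single region. The paper tested each region apart and lists differentially expressed genes in hypothalamus and hippocampus for both comparisons with chow. Differences of the 9 genes by region were not tested here.

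Pdk4 lay between 7.31 and 8.89 normalised CPM on chow (median 8.08), between 7.27 and 9.18 on HFD (median 8.37) and between 8.31 and 10.0 after 16 h of fasting (median 8.56). The 3 groups overlapped, with 2 of 6 fasted mice above every chow mouse. Fasted and chow differed by 0.13 on the log2 scale (95% interval -0.01 to 0.26, edgeR, adjusted p = 0.679). A rise above 1.20-fold lies outside this interval, which treats cage mates as independent. HFD and chow differed by 0.04 (95% interval -0.10 to 0.17; edgeR, adjusted p = 0.874). Within the 3 rounds of cages, fasted means were 9.16, 8.85 and 8.56 normalised CPM beside chow means of 8.39, 8.16 and 7.79, each from 2 mice. With the round in the model the log2 difference was 0.13 (edgeR, adjusted p = 0.686).

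Cpt1a lay between 30.4 and 35.3 normalised CPM on chow and between 34.6 and 39.5 in 16 h fasted mice, with 3 of 6 fasted mice above every chow mouse and a log2 difference of 0.12 (95% interval 0.02 to 0.23; edgeR, adjusted p = 0.603). On HFD the log2 difference was 0.04 (adjusted p = 0.830). Oxct1 had 192 ± 7.85 on chow and 206 ± 10.4 normalised CPM on HFD (SD, n = 6 each), with 4 of 6 HFD mice above every chow mouse and a log2 difference of 0.11 (95% interval 0.01 to 0.20; edgeR, adjusted p = 0.507). Cpt2 was the one gene with a lower value on HFD, at 5.79 ± 0.540 against 6.24 ± 0.508 normalised CPM, a log2 difference of -0.11 (95% interval -0.27 to 0.06; adjusted p = 0.654). Over the 9 genes, log2 differences ran from -0.02 to 0.13 in fasted mice and from -0.11 to 0.11 in HFD mice.

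The fasting effects of the studies were compared with an interaction term. The effect on Pdk4 at 24 h exceeded that at 16 h by 1.43 on the log2 scale with a standard error of 0.203 (edgeR, adjusted p = 3.59e-05), where 1.70% of 30849 genes were called. Pdk4 was the 1 of 9 genes called. For Cpt1a the difference was 0.12 (95% interval -0.07 to 0.32; adjusted p = 0.766) and for Ppara 0.13 (95% interval -0.08 to 0.33; adjusted p = 0.780). Over the study, body weight changed by -21.4 to -17.1% in 24 h fasted mice and by -7.52 to -1.30% in 16 h fasted mice. Among the 10 mice fasted for 24 h, Pdk4 changed by 0.0048 log2 units per percent of weight change (95% interval -0.28 to 0.28; edgeR, adjusted p = 0.999), and 0 of the 9 genes were called. The test called 0 of 25876 genes, with 791 at an unadjusted p under 0.05.

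Other genes of the pathway were taken from 7 lists of 104 genes, 98 of them tested at 24 h. Of these, 13 were called higher and 5 lower, 18.4% in all beside 11.4% of all genes. At 16 h, 0 of 99 were called in each comparison with chow. The lists were chosen with earlier results of these data known, so a share above 11.4% does not test the pathway. All 18 genes called at 24 h had the same direction under 8 other settings, and between 13 and 17 of them stayed called. Of these settings, 4 changed the size factors or the weight of the columns. The balance of calls over all list genes depended on the scaling. It was 9 higher and 12 lower with equal weight of the columns (limma), and 10 higher and 7 lower on total counts. The remaining settings gave 12 to 16 higher and 2 to 7 lower. Counts of calls by list below are to be read beside the 11.4%.

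Pyruvate dehydrogenase and its kinases and phosphatases had 1 of 12 genes called, beside 11.4% of all genes. Pdk2, another kinase of that enzyme, rose from 65.4 ± 6.15 to 90.9 ± 12.0 normalised CPM, a log2 difference of 0.48 (edgeR, adjusted p = 0.000218). Pdk3 had a log2 difference of 0.08 (adjusted p = 0.327).

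Of the 20 tested PPAR receptors, coactivators and known targets, 4 were called higher and 1 lower, and 14 had a positive log2 difference. No receptor or coactivator was among the genes called. Plin4, a coat protein of lipid droplets, rose from 10.0 ± 5.83 to 96.4 ± 21.5 normalised CPM, a log2 difference of 3.27 (edgeR, adjusted p = 2.37e-08), with 62.1 the lowest fasted and 25.4 the highest chow value. Angptl4, a secreted inhibitor of lipoprotein lipase, rose from 2.24 ± 0.831 to 7.22 ± 1.44, a log2 difference of 1.69 (adjusted p = 2.03e-06). The mitochondrial carrier gene Ucp2 rose by 0.93 on the log2 scale (adjusted p = 0.000273) and its relative Ucp3 by 0.43 (adjusted p = 0.0334). Ucp3 lost its call with equal weight of the columns (limma, log2 0.30, adjusted p = 0.152). Fabp7, the brain fatty acid binding protein of glial cells, fell from 24.5 ± 5.14 to 12.7 ± 3.59 normalised CPM, a log2 difference of -0.95 (adjusted p = 0.000224).

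Ketone body synthesis, use and transport had 1 of 13 genes called higher and 1 called lower. Slc16a1, the monocarboxylate transporter that carries ketone bodies and lactate across the blood-brain barrier, fell from 47.8 ± 6.74 to 35.5 ± 5.69 normalised CPM, a log2 difference of -0.43 (edgeR, adjusted p = 0.00378). It is abundant in endothelial cells. Of 7 endothelial markers, 4 were called lower in fasted mice, and 2 of the 7 had a positive log2 difference. The summed level of the 7 ran from 161 to 255 normalised CPM on chow and from 132 to 191 in fasted mice. The part of these markers in the result was not tested.

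Malonyl-CoA, made by the acetyl-CoA carboxylases, inhibits the Cpt1 enzymes. Both carboxylase genes rose, Acacb by 0.70 (edgeR, adjusted p = 0.000715) and Acaca by 0.22 on the log2 scale (adjusted p = 0.0190). They were the 2 genes called of the 10 in this list. The call of Acaca was lost on total counts (adjusted p = 0.116) and with equal weight of the columns (limma, adjusted p = 0.0734). Of 12 genes of fatty acid activation and the carnitine shuttle, 7 had a positive log2 difference and 2 were called higher. These were Slc27a1, a fatty acid transport protein, by 0.28 (edgeR, adjusted p = 4.34e-05), and Slc25a29, a mitochondrial carrier, by 0.27 (adjusted p = 0.00452).

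Of 17 genes of mitochondrial beta-oxidation, 15 were not called, and the median log2 difference was -0.01. Eci2, an enoyl-CoA isomerase, rose by 0.38 (edgeR, adjusted p = 0.00440) and Acads, the short-chain acyl-CoA dehydrogenase, fell by 0.29 on the log2 scale (adjusted p = 0.0495). Acads lost its call under 4 other settings, among them without mice 1423 and 1454 (adjusted p = 0.0690). In peroxisomes, 4 of 14 genes were called. Among them, Acox3, an acyl-CoA oxidase, rose by 0.20 (edgeR, adjusted p = 0.0127) and Decr2, a reductase of unsaturated fatty acids, fell by 0.17 on the log2 scale (adjusted p = 0.0395). Acox3 lost its call on total counts (adjusted p = 0.145) and with equal weight of the columns (limma, adjusted p = 0.115), and Decr2 lost its call under 4 other settings, among them without mice 1423 and 1454 (adjusted p = 0.0547).

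**Figure D5:**
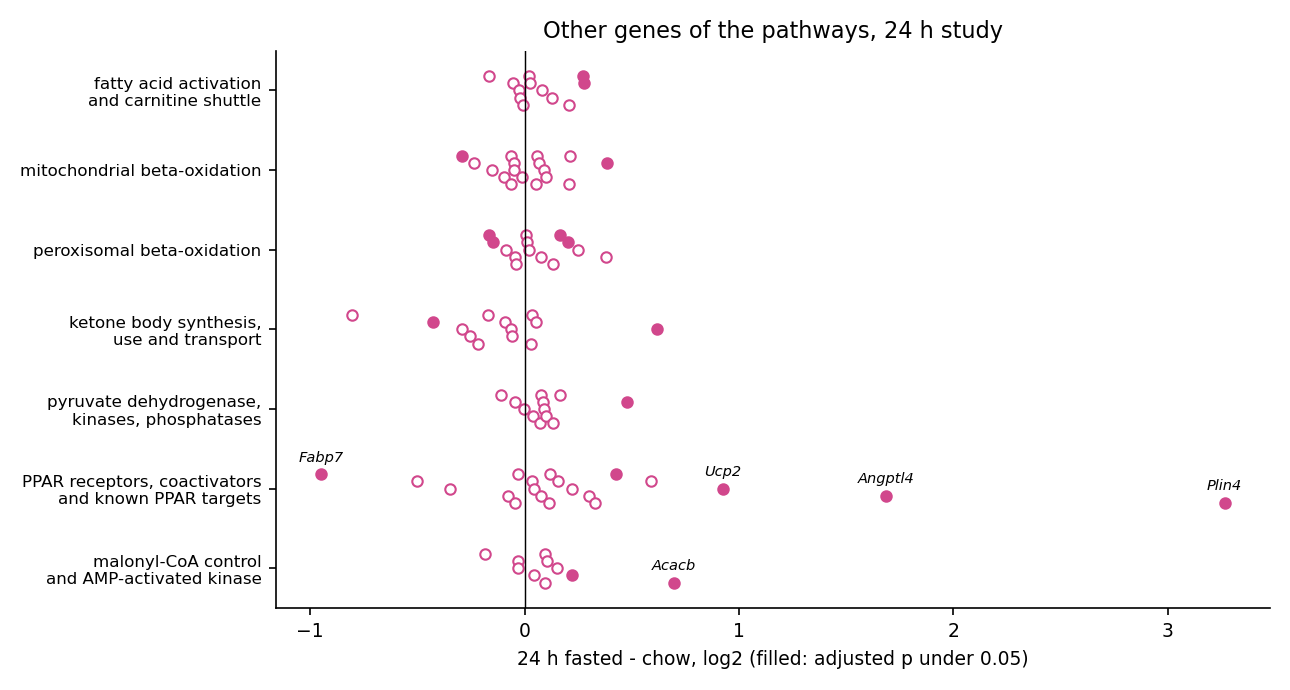
Log2 difference between fasted and chow mice at 24 h for each tested gene of 7 pathway lists. Filled points have an adjusted p under 0.05 (edgeR, 13 higher and 5 lower), and the 5 called genes farthest from 0 are named, from Fabp7 (-0.95) to Plin4 (3.27).

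Markers of brain cell types were read beside these results. At 24 h, where 11.4% of all genes were called, 0 of 6 neuronal markers were called and 1 of 6 oligodendrocyte markers was called higher. Called lower were 2 of 7 astrocyte markers (Aqp4 by -0.85 and Gja1 by -0.25 on the log2 scale), 4 of 6 microglial markers and 2 of 6 mural cell markers. Most of the astrocyte and oligodendrocyte markers went the other way. Called or not, 5 of 7 astrocyte markers had a positive log2 difference (median 0.14), and 2 of 6 oligodendrocyte markers did (median -0.13). Without mice 1423 and 1454, the calls of Gja1, of the endothelial marker Flt1 and of the mural cell marker Acta2 were lost (edgeR, adjusted p = 0.0653, 0.0509 and 0.0598). Summed astrocyte markers ran from 3224 to 4487 normalised CPM on chow and from 3531 to 5096 in fasted mice. Summed microglial markers ran from 114 to 167 and from 93.5 to 151. Choroid plexus markers varied widely in both groups, from 27.2 to 1623 and from 33.9 to 3849. No marker list had a gene at 0 in all mice of a group. The part of these markers in the results for the 9 genes was not tested.

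The genes whose log2 CPM followed Pdk4 most closely over the 19 mice of the 24 h study were Rhpn2 (Pearson's r = 0.967), Arrdc2 (0.965), Tob2 (0.960), Klf15 (0.954) and Dclre1b (0.952). After subtracting the mean of each diet they were Rhpn2 (0.852), Arrdc2 (0.845), Mdm2 (0.828), Desi2 (0.789) and Tob2 (0.782). For Cpt1a they were Ctsl (0.913), Fzd4 (0.898), Lrp5 (0.888), Ctsd (0.885) and Platr4 (0.853), and after subtracting the diet means Lamp2 (0.903), Sod3 (0.860), Ctsl (0.856), Slc4a2 (0.844) and Fzd4 (0.837). Among the 9 genes, Pdk4 followed Ppara (0.733 over all mice, 0.587 after subtraction) and Cpt1a (0.732 and 0.522) most closely. Cpt1a followed Cpt2 (0.787 and 0.720). These values describe mice whose libraries were prepared in several blocks and differ in depth and in the regions that gave most reads.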

How the data were processed

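RNA-seq libraries of 5 brain pieces from each of 37 mice were analysed. Alignment by the authors used STAR 2.7.3a and GRCm39, and they deposited raw counts per Ensembl gene, without normalization; annotation release and counting strand are not given in the sources used here. Columns were matched to mice by heading and not to regions, and the 5 columns were added up. Comparisons used edgeR 4.0.16 in R 4.3.3 (filterByExpr, TMM, glmQLFit, glmQLFTest, Benjamini-Hochberg, called at adjusted p under 0.05), checked on simulated counts. The 3 diets at 16 h shared 1 fit. Intervals are 95% from the t distribution. Where nothing says otherwise, p-values measure the spread between these mice. DESeq2 1.42.0, limma 3.58.1 and other settings served as alternatives. Symbols, coordinates and promoters came from GENCODE vM39 on GRCm39. The 9 genes and all lists were chosen with earlier results of these data known. Values per mouse were first computed as CPM of total counts and changed to TMM-scaled CPM after both group values and outliers had been seen, since the signs of small differences disagreed with the fit; values of single columns are CPM of total counts. The limits for columns rest on an earlier look at these columns. All 9 genes are named, and of each list up to 4 genes of lowest p at 24 h, plus Ucp3, named after its value was seen because it was called; some list genes, though counted, are not reported here. The 5 motifs were searched once and all are reported.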

Additional observations from a re-analysis of the deposited data

Results flagged for a closer look

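Within each of the 5 groups, the 9 genes were searched for a mouse far from the others (45 combinations; chance flags about 1 in 20). On normalised CPM, 4 stood out: Cpt1a in 16 h fasted mouse 11 (39.5, next 36.1), Bdh1 in 16 h fasted mouse 12 (36.6, next 33.8), and in 24 h fasted mouse 1435 both Bdh1 (37.4, next 31.5) and Oxct1 (233, next 191). Mouse 12 and mouse 1435 had the lowest TMM factors of their groups, 0.95 and 0.879. On CPM of total counts, the scale used first, none of these 4 stood out and a single other value did: Cpt1a in 24 h fasted mouse 1453 (60.8, next 45.9). Which mice stand out therefore depends on the scale, which was changed after this was seen. Without mouse 1453 and the mice of the exchanged tubes, the 24 h difference of Cpt1a was 0.22 on the log2 scale (edgeR, adjusted p = 0.0239) and that of Pdk4 1.62.

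The effect of fasting on Pdk4 differed between the studies by 1.43 on the log2 scale (interaction term, edgeR, adjusted p = 3.59e-05), with all 10 fasted mice above the chow mice at 24 h and 2 of 6 at 16 h.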

How the results depend on the processing

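The call of Pdk4 at 24 h held under 10 other settings and with each of the 19 mice left out in turn (log2 1.48 to 1.62). These 10 include the main fit read at adjusted p under 0.1, where a call at 0.05 could not be lost. The call of its interaction held under 4 other settings. The calls of Cpt1a, Ppara and Oxct1 at 24 h that changed are given with those genes, and the cause was not tested. Added after the data had been seen were total counts without TMM factors, and a fit without mice 1423, 1454 and 1453; the latter changed no call of the 9 genes. Of the values of the 9 genes, 12 changed sign under a setting that left out no single mouse, none of them called. With equal weight of the columns (limma) these were Slc25a20 -0.0303 and Bdh1 -0.0545 at 24 h, Oxct1 -0.0148 in 16 h fasted against chow, Cpt1a -0.0029 and Bdh1 -0.0153 in HFD against chow, and Slc25a20 -0.0049 in fasted against HFD mice. On total counts they were Bdh1 -0.0261 at 24 h, Cpt2 -0.0124 in 16 h fasted against chow, Slc25a20 -0.0004 and Bdh1 -0.0040 in HFD against chow, and Slc25a20 -0.0168 in the interaction, and with cage sums Cpt2 -0.0040 in 16 h fasted against chow. With 1 mouse left out, values that changed sign ranged at 24 h from -0.0099 to 0.0525 (Bdh1); in 16 h fasted against chow from -0.0114 to 0.0423 (Cpt1c), -0.0509 to 0.0418 (Cpt2) and -0.0433 to 0.0084 (Acadm); in HFD against chow from -0.0006 to 0.0558 (Cpt1a); in fasted against HFD from -0.0200 to 0.0323 (Ppara) and -0.0120 to 0.0223 (Slc25a20); and in the slope on weight change from -0.1203 to 0.1937 (Pdk4), -0.0783 to 0.0311 (Ppara), -0.0227 to 0.0193 (Slc25a20), -0.0109 to 0.0334 (Bdh1) and -0.0070 to 0.0601 (Oxct1). Calls over all genes at 16 h were 19 (fasted against chow) and 5 (HFD against chow) with DESeq2. Between fasted and HFD mice the 65 calls became 26 without a filter, 142 with clock time, 0 with cage sums (fewer replicates), 209 at adjusted p under 0.1, 354 with DESeq2, 133 with limma, and 0 (without fasted mouse 11) to 108 with 1 mouse left out; 53.7% of them were higher with DESeq2 and 79.5% on total counts, beside 42 higher and 23 lower. No paired analysis was possible by mouse, because mouse numbers are not shared between diets. The rounds of cages, which the 16 h diets share, were a term in another fit, which changed no call of the 9 genes. Depth limits Ppara most, with 220 to 689 counts per mouse.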
